A study of Oryza sativa with 12 samples.

Results

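The spikelet transcriptomes of 2 flooded-rice cultivars (Oryza sativa), BR-IRGA 409 and IRGA 428, were compared at the control temperature of 29 °C. The comparison used the 3 control libraries of BR-IRGA 409 and the 3 control libraries of IRGA 428, which are 6 of the 12 libraries of the study; the other 6 came from plants heated to 38 °C. The labels describe BR-IRGA 409 as tolerant and IRGA 428 as sensitive to heat stress. All plants were grown in a greenhouse and moved to climate chambers when the panicle emerged. The 6 control libraries came from plants held at 29 °C for 7 h of the day on 3 days at anthesis, and each library was made from spikelets of the middle of the panicle of 2 plants. No allele or transgene separates the groups by design: they differ in the whole genetic background of the cultivars. Of 57174 listed genes, 20826 passed a filter on low counts and were tested, while 26286 (46.0%) had 0 counts in all 6 libraries.

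The rice spikelet is a single-flowered unit in which the lemma and palea, leaf-like bracts, enclose the stamens and the pistil. At anthesis the lodicules swell and open the flower, the anthers release pollen and fertilisation follows. This stage is known as the most heat-sensitive one of rice reproduction, because heat impairs anther opening and pollen germination on the stigma. Differences between cultivars without heat form the baseline on which any response is laid, and they include genes that differ in sequence or are missing from a genome as well as genes that are regulated differently. Gene IDs here begin with MH, and the files do not pair them with names: 0 of them matched the reference table of rice genes. Genes are therefore described by level, pattern and place in the ID order, without functions, and marker genes of spikelet tissues were not checked. Read counts cannot tell a gene that is not expressed from one whose sequence is absent or too different to be aligned.

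Gene counts per library were 7.08, 15.0 and 8.08 M (M, 1000000 counts) in BR-IRGA 409 and 8.88, 16.4 and 15.8 M in IRGA 428, overlapping between the cultivars. The share of reads that aligned to more than 1 place was lower in BR-IRGA 409, at 3.76% ± 0.0583 (SD, n = 3), than in IRGA 428, at 4.25% ± 0.157, and did not overlap (exact two-sided permutation p = 0.1, the smallest that 3 libraries against 3 can give). The part of this share in the results was not tested. The IRGA 428 libraries varied more among themselves, with a biological coefficient of variation, the relative spread between libraries beyond counting error, of 0.335 against 0.162 in BR-IRGA 409. IRGA 428 control 3 lay closer to a library of the other temperature, heat 1 (0.0786), than to control 1 (0.362) or control 2 (0.311). Control 2 was also closer to the heated libraries (0.206 to 0.294) than to control 1 (0.321) or control 3. Control 1 lay farthest from the rest, at 0.321 to 0.443 from the other IRGA 428 libraries. No other pair of IRGA 428 libraries was as close as control 3 and heat 1. Results that rest on control 3 are therefore also given without it. The deposited files of BR-IRGA 409 are named as new, with no explanation in the labels; a separate run of that cultivar could not be told apart from the cultivar itself.

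At 29 °C, 474 of the 20826 genes (2.28%) differed between the cultivars. The level was higher in BR-IRGA 409 for 205 of them (0.984% of the genes tested) and lower there for 269 (1.29%) (edgeR quasi-likelihood test, Benjamini-Hochberg adjusted p below 0.05). The differences of the called genes were mostly large. These genes were chosen by the same test, which small differences are less likely to pass, so the sizes describe the called genes alone. A difference of at least 2-fold was found in 186 of the 205 and in 254 of the 269 genes, and one of at least 4-fold in 134 and 198. The median log2 difference (BR-IRGA 409 over IRGA 428) was 3.27 in the first group and −5.07 in the second, or 3.27 and −4.16 when genes with 0 counts in a cultivar were set to the lowest fold that 3 counts would allow. Over all genes tested the median was −0.02, and the median size of the difference regardless of sign was 0.17. In all 474 genes the 3 libraries of a cultivar lay apart from the 3 of the other, which was also true of 15.2% of the genes tested. The other 2692 genes with this separation did not pass.

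The count of 474 rested on every BR-IRGA 409 library: it was 262 without replicate 1, 203 without replicate 2 and 222 without replicate 3. Without IRGA 428 replicate 3, 571 genes were called, of which 386 were among the 474, and the balance turned, with 309 higher in BR-IRGA 409 and 262 lower. In every one of the 6 fits that left out a library, 189 of the 474 genes were called, 68 of them higher and 121 lower in BR-IRGA 409. The main fit did not pair libraries by replicate number. With that number as a block, 370 genes were called, 329 of them among the 474.

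**Figure D1:**
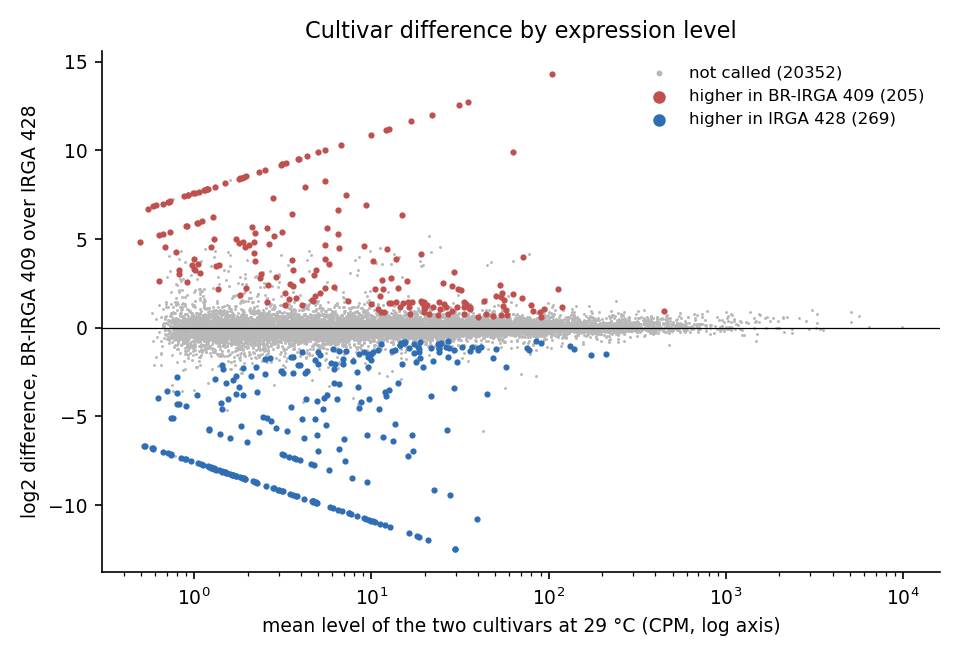
Each point is a tested gene, with the mean level of the cultivars at 29 °C (CPM, log axis) across and the log2 difference, BR-IRGA 409 over IRGA 428, upward; red and blue points are the 205 and 269 called genes, respectively. The slanting lines of points at the top and bottom are genes with 0 to 3 counts in a cultivar, whose fitted difference follows from the level in the other. Among genes of 100 CPM or more, 8 were called.

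The called genes were chiefly transcripts of low and moderate abundance. Of the genes with a mean below 1 CPM (counts per 1000000, on library sizes scaled by trimmed mean of M-values), 48 of 544 (8.82%) were called. The share was 3.78% of 6818 genes at 1 to 10 CPM, 1.40% of 11405 genes at 10 to 100 CPM and 0.389% of 2059 genes at 100 CPM or more. The median size of the log2 difference of called genes went down along these classes, from 6.18 and 5.74 to 1.40 and 1.34. The filter on low counts worked by group, so a gene of low mean could be tested because of the cultivar where it was high. This favours genes that differ in the lowest class, whose share and size are therefore not comparable with those of the other classes. The estimates were more precise in the higher classes: over all tested genes the median standard error (SE) of the log2 difference was 0.55 below 1 CPM, 0.34 at 1 to 10 CPM and 0.17 in both classes from 10 CPM.

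Most of the abundant transcripts of the spikelet differed by less than 2-fold between the cultivars. None of the 100 most abundant genes was called by edgeR, although 12 of them had an unadjusted p below 0.05, and 99 of them differed by less than 2-fold. Their median difference regardless of sign was 0.27 on the log2 scale, with a median SE of 0.27. Among the 1000 most abundant genes 3 were called and 995 differed by less than 2-fold. A difference of 2-fold or more was estimated for 1 of the top 100 and 5 of the top 1000. These values do not show that the levels were equal. The 10 most abundant genes of each library took 5.28% ± 0.225 (SD, n = 3) of the gene counts in BR-IRGA 409 and 4.74% ± 0.159 in IRGA 428, without overlap (exact two-sided permutation p = 0.1, the smallest possible).

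The most abundant called gene in each direction was singled out after its values had been seen. MH02g0159600, rank 221 by level, had 598, 541 and 613 CPM in the BR-IRGA 409 libraries and 309, 299 and 316 CPM in those of IRGA 428. The groups lay far apart for their spread, and the log2 difference was 0.92 (SE 0.14, edgeR adjusted p = 0.019). This call was the least stable of the single genes described here: it was kept without IRGA 428 control 3 and lost without any 1 of the other 5 libraries, and its adjusted p was 0.0547 with the replicate number as a block. MH12g0185400, rank 696, was higher in IRGA 428, at 305, 235 and 392 CPM against 109, 111 and 114 CPM (log2 difference −1.48, SE 0.20, edgeR adjusted p = 0.0133). Its IRGA 428 libraries varied widely, with control 3 the highest, while those of BR-IRGA 409 were nearly equal. Its call was kept without any 1 of the IRGA 428 libraries and lost without any 1 of those of BR-IRGA 409 (edgeR adjusted p of 0.0938 to 0.104).

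In 190 called genes the mean level was 1 CPM or more in both cultivars. These were almost evenly divided, 94 against 96 higher in IRGA 428, and had median log2 differences of 1.43 and −1.43. At least 2-fold differences were found in 75 and 81 of them and at least 4-fold differences in 24 and 25. The smallest difference that passed was 0.58 on the log2 scale. With the IRGA 428 mean taken over controls 1 and 2 alone, 91 and 96 of these genes remained in the class. Among the genes called without control 3 the numbers were 149 and 110, so the even division depended on that library.

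The 4 genes named next had the largest differences among the 190, 2 in each direction. MH05g0095800 had 21.5, 32.2 and 17.1 CPM in BR-IRGA 409 and 0.211, 0.479 and 2.40 CPM in IRGA 428, where control 3 alone exceeded 1 CPM and brought the mean to that level. The cultivars were 22.9-fold apart in the mean (log2 difference 4.43, SE 0.71, edgeR adjusted p = 0.0306). The call was lost with the replicate block (adjusted p = 0.0808) and without IRGA 428 control 2 or any 1 of the BR-IRGA 409 libraries (0.0921 to 0.155). Without control 3 the log2 difference was 5.94 (edgeR adjusted p = 0.00358). MH02g0485800 had 37.6, 31.3 and 38.7 CPM against 1.89, 2.88 and 1.30 CPM, a 17.7-fold difference that was even across libraries (log2 difference 4.13, SE 0.30, edgeR adjusted p = 0.00113).

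Of the genes higher in IRGA 428, MH09g0218700 had 20.2, 16.5 and 18.2 CPM there and 1.57, 1.16 and 0.643 CPM in BR-IRGA 409 (log2 difference −4.02, SE 0.29, edgeR adjusted p = 0.00113). The values in BR-IRGA 409 rested on 11, 17 and 5 counts. MH11g0538300 had 42.1, 45.6 and 34.0 CPM in IRGA 428 and 2.71, 1.37 and 4.63 CPM in BR-IRGA 409 (log2 difference −3.86, SE 0.41, edgeR adjusted p = 0.00547). The last 3 genes kept their call in all 6 fits without a library. In the heated libraries the cultivars did not overlap in these genes, nor in MH05g0095800.

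**Figure D2:**
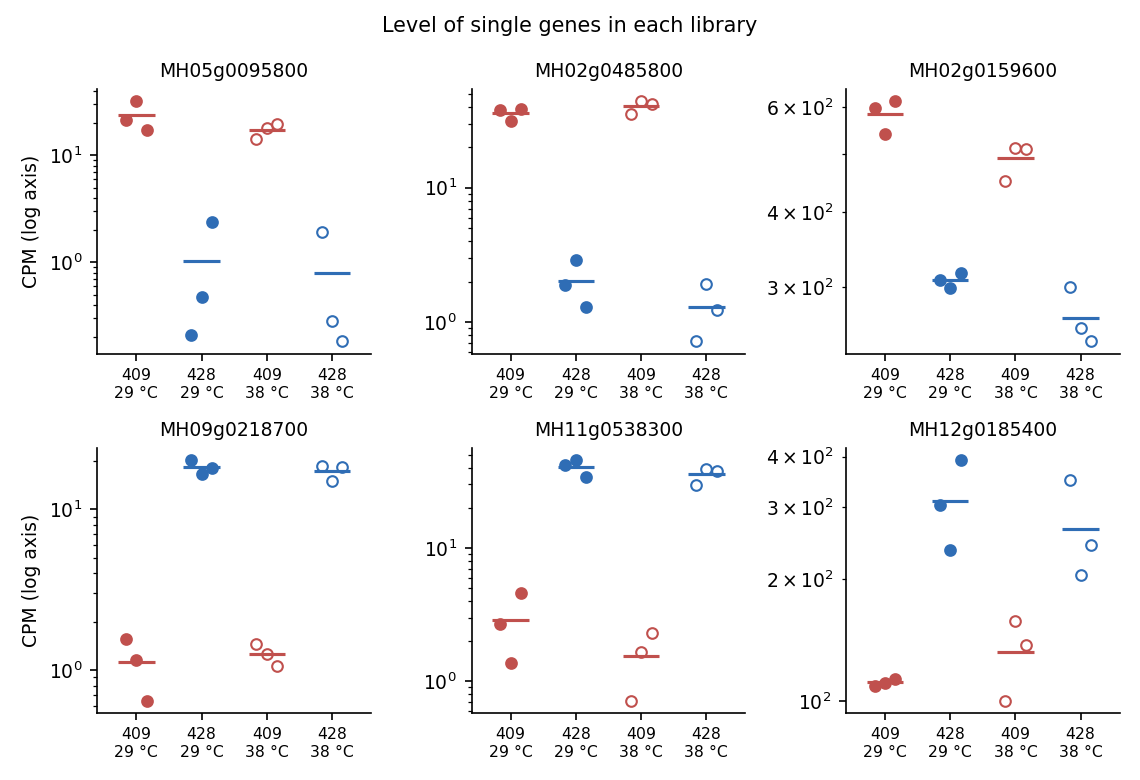
Level of the 4 genes named by the rule (left and middle columns) and of the most abundant called gene in each direction (right column), in CPM on log axes that differ between panels. Each point is a library, red for BR-IRGA 409 and blue for IRGA 428, filled at 29 °C and open at 38 °C, with a line at the mean of 3. In each panel the filled points of the cultivars do not overlap; in MH05g0095800, IRGA 428 control 3 and heat 1 stand above the other 4 libraries of that cultivar.

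A second class of differences was close to presence and absence. Among the 205 genes higher in BR-IRGA 409, 45 had 0 counts in the 3 IRGA 428 libraries together, 19 had 1 to 3 counts and 47 had more counts but stayed below 1 CPM. Among the 269 genes higher in IRGA 428 these numbers were 91, 36 and 46 in BR-IRGA 409. Genes at 0 counts thus made up 22.0% of the first group and 33.8% of the second.

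With a stricter definition over all listed genes, at least 1 CPM in every library of a cultivar and 0 counts in every library of the other, 43 genes were found only in BR-IRGA 409 and 92 only in IRGA 428. The library totals were not equal, 41.1 M gene counts behind a 0 in IRGA 428 and 30.1 M behind a 0 in BR-IRGA 409. With all libraries thinned to the smallest, the numbers were 52 and 93. Most of these transcripts were rare where they were present, with a median of 3.81 CPM for the 43 genes and 4.34 CPM for the 92, but 11 and 23 of them reached 10 CPM. As a count of 0 allows up to 3 counts over the group, the 43 genes were higher in BR-IRGA 409 by at least 18.8-fold to at least 2772-fold, and the 92 genes higher in IRGA 428 by at least 11.6-fold to at least 582-fold. These limits cover counting error only.

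The first of these numbers depended on IRGA 428 control 3. Without that library, 92 genes were found only in BR-IRGA 409 and 95 only in IRGA 428, so that the numbers were nearly even. They rest on unlike criteria, as 0 counts were then required of 2 libraries of IRGA 428 and of 3 of BR-IRGA 409. Counts in BR-IRGA 409 control 1, 2 or 3 alone were found for 8, 14 and 7 genes at 1 CPM or more in every IRGA 428 control. The rise from 43 to 92 genes only in BR-IRGA 409 came from 49 genes. These had 0 counts in IRGA 428 controls 1 and 2, at least 1 CPM in every BR-IRGA 409 control, and counts in IRGA 428 control 3. Summed over the 49 genes, the level was 773, 783 and 759 CPM in the BR-IRGA 409 controls and 146 CPM in control 3, which is 19.0% of their mean. The other controls had few such genes: counts in control 1 alone were found for 2 genes, summing to 1.58 CPM, and in control 2 alone for 5 genes, summing to 0.839 CPM.

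The same genes stood out in a heated library that had no part in choosing them. IRGA 428 heat 1, the library closest to control 3, had 141 CPM summed over the 49 genes and counts in 45 of them, while heat 2 and heat 3 had 1.98 and 1.20 CPM with counts in 12 each. MH01g0397900, the most abundant of the 49, had a mean of 117 CPM in the BR-IRGA 409 controls, 21.3% of that in control 3, and 23.0 CPM in heat 1. By the IDs, 14 of the 49 genes were on chromosome 1, 10 on chromosome 8, 9 on chromosome 4 and 6 on chromosome 6. None was on chromosomes 7, 11 or 12, although 19 of the 43 genes found only in BR-IRGA 409 were on the last pair. Of the 49 genes, 13 were among the 474 called, and 46 were called without control 3. What these transcripts in control 3 and heat 1 stem from was not tested.

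In the heated libraries, 28 of the 43 genes and 58 of the 92 again had 0 counts in a cultivar and at least 1 CPM in every library of the other. Of the 43 genes, 32 had 0 counts and 41 had at most 3 counts in IRGA 428 at 38 °C, and 38 were again at 1 CPM or more in every BR-IRGA 409 library. Of the 92 genes, 64 had 0 counts and 83 at most 3 in BR-IRGA 409 at 38 °C, among 160 M gene counts, and 85 were at 1 CPM or more in every IRGA 428 library. The highest count that any of the 92 reached in BR-IRGA 409 was 38 over the 3 heated libraries, and the highest mean level was 0.265 CPM.

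Called genes were unevenly spread over the genome as far as the IDs show it. The digits after MH are read as a chromosome number and the order of IDs as the order along it, which the files do not state; these are descriptions without a test, since neighbouring genes are not independent. On chromosome 12, 100 of 1137 tested genes (8.80%) were called, against 1.90% of genes elsewhere, and on chromosome 11 it was 60 of 1183 (5.07%). Chromosome 7 held 7 of 1616 (0.433%) and chromosome 5 held 14 of 1737 (0.806%). The directions were unequal on chromosome 10, where BR-IRGA 409 had the higher level in 9 called genes and IRGA 428 in 27. They were also unequal on chromosome 9, at 2 and 13, and near equal on chromosome 4, at 31 and 30. Without IRGA 428 control 3 the numbers were 12 and 24 on chromosome 10, 7 and 12 on chromosome 9, and 41 and 31 on chromosome 4. On chromosome 1 the balance then turned, from 17 and 21 to 44 and 25. Genes found only in 1 cultivar were also frequent on chromosomes 12 and 11, which held 5.46% and 5.68% of the tested genes. Chromosome 12 had 10 of the 43 (23.3%) and 27 of the 92 (29.3%), and chromosome 11 had 9 (20.9%) and 15 (16.3%). Chromosome 7, with 7.76% of the tested genes, had 3 of the 43 and 0 of the 92. The 49 genes that joined the 43 without IRGA 428 control 3 included none on chromosome 11 or 12. With all genes of 3 or fewer counts in a cultivar left out, 4.96% of the tested genes were called on chromosome 12 and 1.37% over all chromosomes. The unevenness of the calls was thus not limited to genes of 3 or fewer counts in a cultivar. Genes with more counts but below 1 CPM in a cultivar were still included. Of the 190 called genes at 1 CPM or more in both cultivars, 37 were on chromosome 12. Without IRGA 428 control 3 the share was 8.39% on chromosome 12, 4.65% on chromosome 11, 1.25% on chromosome 7 and 2.35% on chromosome 1, against 2.78% over all genes tested. The share of chromosome 7 was thus nearer to the others but still the lowest after that of chromosome 5 (1.17%).

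**Figure D3:**
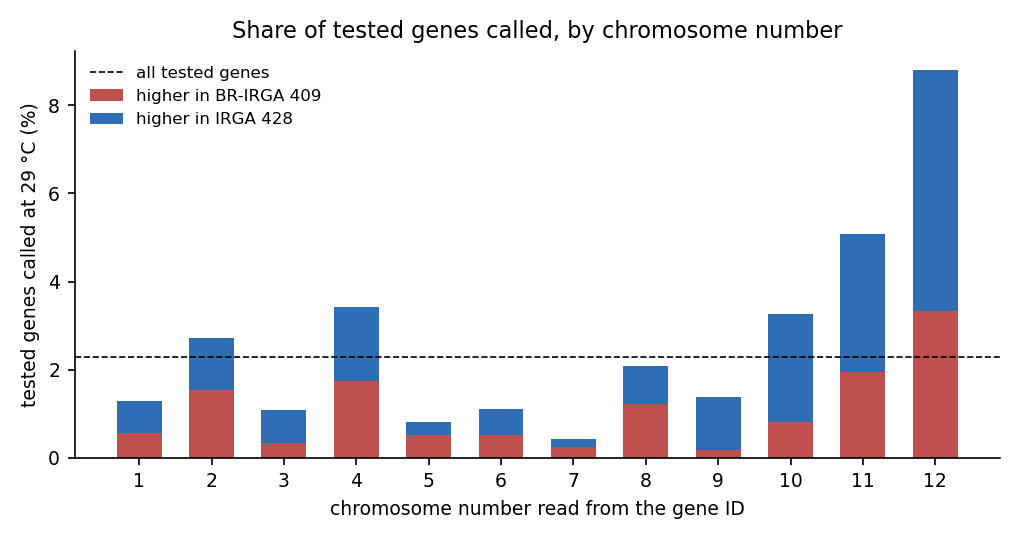
Share of the tested genes that were called at 29 °C (%), by the chromosome number read from the gene ID, split by the cultivar with the higher level (red, BR-IRGA 409; blue, IRGA 428). The dashed line is the share over all tested genes, 2.28%; chromosome 12 reached 8.80% and chromosome 7 only 0.433%.

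On a finer scale, the called genes lay in clusters. Of the called genes, 325 of 474 (68.6%) had another called gene among the 5 tested genes on either side, against 13.5% of all tested genes. Neighbours were not all of 1 direction. Of the 205 genes higher in BR-IRGA 409, 93 had a neighbour higher in that cultivar and 79 a neighbour higher in IRGA 428; of the 269 genes higher in IRGA 428, 164 had a neighbour of the same direction and 109 one of the other. Without IRGA 428 control 3, a called neighbour was found for 61.1% of the called genes and for 17.4% of all tested genes.

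In successive windows of 50 tested genes, 256 of 411 windows (62.3%) held 0 called genes, while 30 windows with 5 or more held 259 called genes (54.6% of all). The densest were adjoining windows near the end of chromosome 11 by ID order: the last 4 of its 23 windows held 50 called genes, 34 of them higher in IRGA 428. Windows 10 to 14 of 22 on chromosome 12 held 51 called genes and windows 16 to 18 held 24. The first 3 of 22 windows on chromosome 10 held 20 called genes, of which 17 were higher in IRGA 428. On chromosome 4, windows 2 to 5 of 35 held 33 called genes, evenly divided at 17 and 16. Such places were also found on chromosome 8, in windows 14 and 15 of 25 (16 called genes), and on chromosome 3, whose share was low, in windows 53 and 54 of 55 (12 called genes). The longest stretch without a call was windows 20 to 47 of chromosome 3, in which 0 of 1400 tested genes passed, followed by the last 17 windows of chromosome 1, with 0 of 850. Over the same ID ranges without IRGA 428 control 3, 6 genes were called in the first stretch and 2 in the second, and the dense stretches held 42 calls at the end of chromosome 11 and 49 and 23 on chromosome 12.

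**Figure D4:**
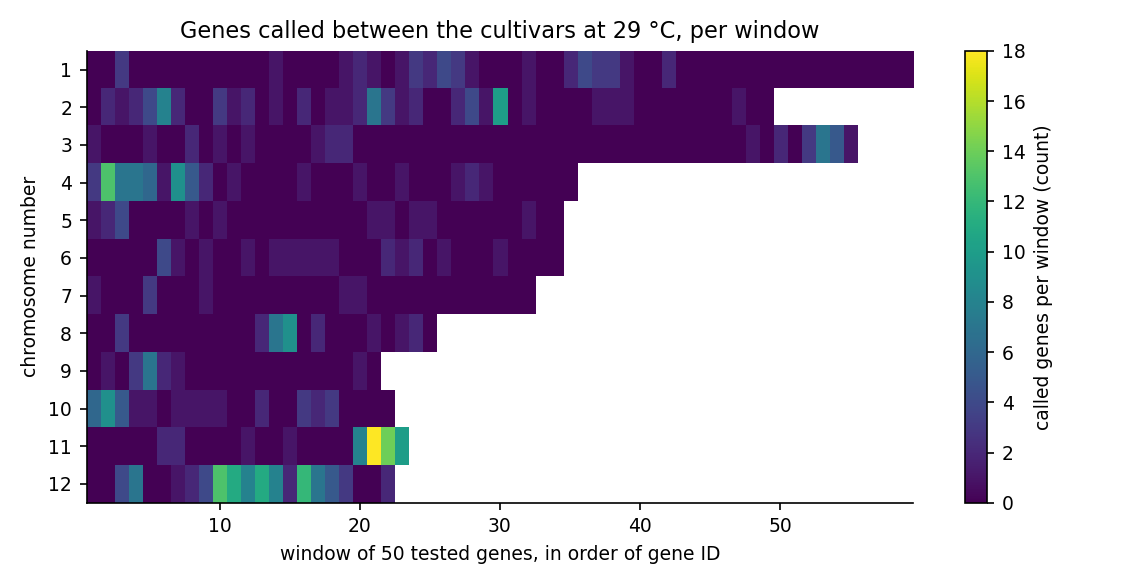
Number of genes called between the cultivars at 29 °C (colour scale, count) in successive windows of 50 tested genes in order of gene ID (across), for the 12 chromosome numbers (down). The brightest windows are at the end of chromosome 11, with up to 18 called genes, and in the middle of chromosome 12; 256 windows hold 0.

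The sharpest cluster of 1 direction was on chromosome 2, singled out after the windows had been counted. From MH02g0484000 to MH02g0485800, 13 consecutive tested genes all had a higher estimate in BR-IRGA 409, and 10 of them were called (edgeR, adjusted p of 0.000782 to 0.0391). Their log2 differences ran from 2.39 to 14.3, and 5 of the 10 had 0 counts in IRGA 428. Summed over the 10 called genes, the level was 373, 257 and 262 CPM in the BR-IRGA 409 libraries and 4.53, 4.37 and 2.27 CPM in those of IRGA 428. A single gene, MH02g0485000, gave most of the sum, at 210 ± 60.3 CPM (SD, n = 3) in BR-IRGA 409, and the other 9 lay between 2.01 and 35.9 CPM. Of the 3 genes of the run that were not called, MH02g0485300 and MH02g0485200 had log2 differences of 7.25 and 3.19 with edgeR adjusted p-values of 0.0531 and 0.0679, and MH02g0484300 differed by 0.47 (adjusted p = 0.967).

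At 29 °C the calls ended with the run. The 12 tested genes before it had log2 differences between −0.21 and 0.55, the 12 after it between −0.76 and 1.01, and 0 were called on either side. At 38 °C the same 10 genes were called in the same direction, with summed levels of 93.3, 162 and 114 CPM in BR-IRGA 409 and 1.97, 3.06 and 2.55 CPM in IRGA 428. Of the other 3 genes of the run, MH02g0485300 was called at 38 °C and MH02g0484300 had a log2 difference of −1.39 (edgeR adjusted p = 0.0974). At that temperature 0 of the 12 genes before the run and 2 of the 12 after it were called, 1 in each direction, with log2 differences of −1.07 to 1.19 after it.

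The heated libraries gave a reading of the cultivar difference that shares no library with the one at 29 °C. Fitted by themselves, they gave 1724 called genes among 22960 tested (7.51%). They were deeper, with 160 M against 30.1 M gene counts in BR-IRGA 409 and 64.2 M against 41.1 M in IRGA 428. Pairs of IRGA 428 libraries were also closer, with biological coefficients of variation of 0.108 to 0.252 at 38 °C and 0.311 to 0.362 at 29 °C. The part of depth and spread in the higher number of calls was not tested. Of the 205 genes higher in BR-IRGA 409 at 29 °C, 201 could be tested at 38 °C, 196 (97.5%) had the same sign and 174 were called in the same direction. Of the 269 genes higher in IRGA 428, 268 could be tested, 267 (99.6%) had the same sign and 255 were called. None was called in the opposite direction. Over all 20777 genes tested at both temperatures, 64.2% had the same sign. The size of the differences was also close, with medians of 3.25 at 29 °C and 3.06 at 38 °C in the first group and −5.04 and −4.60 in the second, although genes chosen at 29 °C have enlarged values there. The shared sign was kept when IRGA 428 heat 1 or control 3 was left out alone, but the share of shared calls fell without control 3. Without heat 1 at 38 °C, 466 of 473 testable genes had the same sign and 436 (92.0% of the 474) were called the same way. Of the 571 genes called at 29 °C without control 3, 548 of 567 had the same sign and 430 (75.3% of the 571) were called. These libraries were not left out together. With all libraries kept, the 429 shared calls were 90.5% of the calls at 29 °C and 24.9% of those at 38 °C.

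In the 38 °C libraries the summed level of the 205 genes was 4695 to 4894 CPM in BR-IRGA 409 and 1618 to 1799 CPM in IRGA 428. The 269 genes summed to 1279 to 1415 CPM in BR-IRGA 409 and 4933 to 5070 CPM in IRGA 428. In the libraries in which the genes were chosen, the sums were 5522 to 5743 against 1782 to 1874 CPM, and 1315 to 1399 against 5027 to 5474 CPM. The 474 genes thus made up under 1% of the transcript counts of either cultivar.

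**Figure D5:**
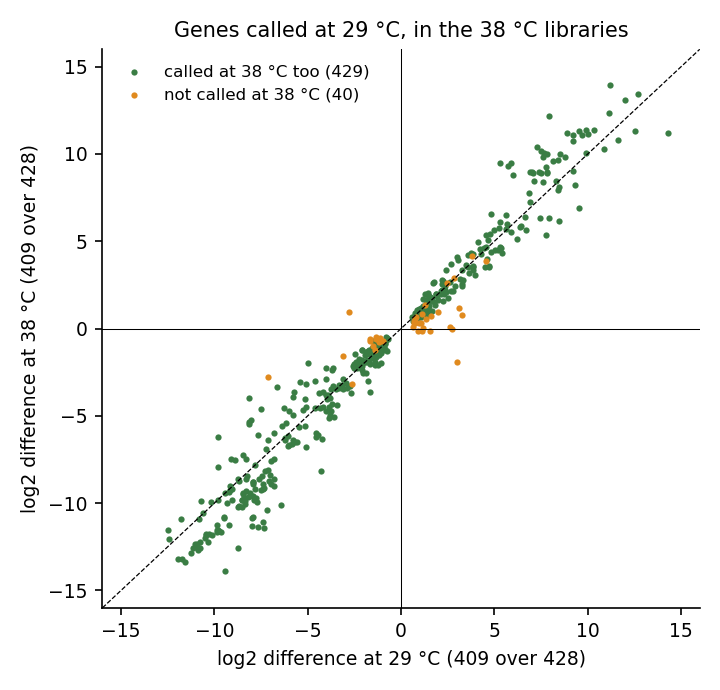
Log2 difference between the cultivars, BR-IRGA 409 over IRGA 428, at 29 °C (across) and at 38 °C (upward) for the 469 genes called at 29 °C that could be tested at 38 °C; the dashed line marks equal values. Green points (429) were called at 38 °C too and orange points (40) were not. Of the 469 genes, 463 lie on the same side of 0 at both temperatures.

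The clusters seen at 29 °C also stood out at 38 °C, beyond the genes that defined them. Among genes that were not called at 29 °C, 182 of 1236 (14.7%) were called at 38 °C when they lay in windows with 5 or more calls at 29 °C, 373 of 6023 (6.19%) in windows with 1 to 4 calls, and 462 of 12778 (3.62%) in windows with none. The same genes had median log2 differences, regardless of sign, of 0.30, 0.22 and 0.20 at 38 °C and of 0.24, 0.17 and 0.15 at 29 °C. Estimated differences of genes that were not called at 29 °C were thus larger in the dense windows as well. Such estimates also spread more at low levels, and the levels of the genes were not compared between the kinds of window.

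Whether the cultivar difference depended on temperature was tested with the interaction over all 12 libraries, and 1 of 22321 genes passed (0.00448%), while 1236 had an unadjusted p below 0.05. That gene, MH12g0324600, was among the 474. It had 0.570, 0.683 and 0.515 CPM in BR-IRGA 409 and 24.4, 25.9 and 29.7 CPM in IRGA 428 at 29 °C. At 38 °C the levels were 3.38, 2.97 and 3.15 CPM and 23.5, 29.1 and 25.3 CPM. The log2 difference between the cultivars was therefore −5.44 (SE 0.21) at 29 °C and −3.04 (SE 0.13) at 38 °C (edgeR adjusted p = 0.00955 for the interaction), with the value in BR-IRGA 409 at 29 °C resting on 18 counts in all. It was also the gene that passed without IRGA 428 control 3 (adjusted p = 0.0269) and without heat 1 (adjusted p = 0.0341). For the 45 genes called at 29 °C and not at 38 °C, a dependence on temperature was not shown. They include genes that could not be tested at 38 °C, where 469 of the 474 were tested.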

How the data were processed

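The authors deposited a file of unnormalised counts of reads by gene for every library, each with 5 closing lines that name no gene and were left out. Per the submitters' processing notes they used Trimmomatic 0.33, HISAT2 2.05 and HTSeq 0.6.1. The build, parameters and strandedness were not given in the sources used here. Hence overlapping antisense genes cannot be told apart, and genes with near-identical copies are uncertain. Lines without a gene held 19.9% to 25.0% of a library.

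Counts of the 6 libraries at 29 °C were fitted alone with edgeR 4.0.16 in R 4.3.3 (filterByExpr, trimmed mean of M-values, robust quasi-likelihood F-test, 4 residual degrees of freedom, Benjamini-Hochberg adjustment over all genes tested, called below 0.05). The SE is the log2 difference divided by the square root of F. The 6 libraries at 38 °C were fitted likewise, and the interaction was fitted on all 12. The model was tested on simulated counts. Named genes are the 2 with the largest difference per direction among called genes with a mean of 1 CPM or more in each cultivar and no overlap. Libraries with the same replicate number deviated together in the cultivars (correlations of 0.330, 0.376 and 0.216 over genes, −0.303 to −0.0768 for other pairs). Deviations were taken from each cultivar's mean, which ties the negative values to the positive ones. The numbers were taken as pairs from the data, but the main fit and the results drawn from it left the pairs out. A fit with the replicate number as a block was an alternative. Others were limma-voom (limma 3.58.1), DESeq2 1.42.0, changed scalings, filters and thresholds, thinned counts and left-out libraries. Results without IRGA 428 control 3 or heat 1, other than the count of calls, were added after seeing the data. The labels name no molecular identifiers, so limits cover counting error only. They do not say that the libraries of a group came from separate experiments, so p-values measure the spread between these libraries, which may be partly technical. The comparison, the classes and the windows were chosen with earlier results of these data known.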

Additional observations from a re-analysis of the deposited data

How the results depend on the processing

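The 474 genes called between the cultivars at 29 °C became 908 with DESeq2, which held all 474, and 903 with all 12 libraries in the fit (465 shared). An adjusted p below 0.01 left 228. Leaving out single libraries gave 203 to 571. With the replicate number as a block, 370 genes were called, 329 of them among the 474; of the 4 named and 2 most abundant called genes, this ended the calls of MH05g0095800 and MH02g0159600 and of no other. Limma-voom (496), relative log expression (477) and upper-quartile scaling (472), testing all genes with a count (546), a minimum of 1 CPM in 3 libraries (451), no robust estimation (482), a 2-fold minimum (440) and thinning (409) stayed within 1.5 times. None of the 6 genes given as named or most abundant changed sign in 18 alternatives. MH02g0485800, MH09g0218700 and MH11g0538300 passed in all 18, MH12g0185400 in 14, MH05g0095800 in 11 and MH02g0159600 in 10. Requiring 5 CPM in place of 1 left 16 genes only in BR-IRGA 409 and 38 only in IRGA 428. A count of 0 was read from 30.1 M gene counts in BR-IRGA 409 and 41.1 M in IRGA 428. The cause of these changes was not tested.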
